A study of Rattus norvegicus with 79 samples.

Results

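The genes described here code for neurofilaments and for other proteins of the axon and dendrite skeleton. They are the neurofilament subunits Nefl, Nefm and Nefh, the related filament protein Ina, the growth cone proteins Gap43 and Marcks, the microtubule-associated proteins Map2, Mapt and Map1b, and the membrane skeleton protein Sptan1. All probe sets whose single symbol in the probe-to-gene table was one of these 10 names were taken, which gave 26 of the 8799 probe sets on the array, for 10 of 4737 named genes. Of these 26, 17 probe sets of 9 genes were among the 5244 with a mean signal above 116.9 that were tested. The 9 below that level were the 3 of Map1b, 4 of the 6 of Marcks and 2 of the 5 of Map2.

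Messenger RNA of the CA1 field of the hippocampus was measured in male Fisher-344 rats killed on the day after water maze training, with 1 array for each of 79 rats. The 60 aged rats (24 months) comprised 10 learning-impaired, 13 unimpaired and 16 B rats trained with a hidden platform, 8 trained with a visible platform, 8 yoked rats that swam without a platform and 5 cage controls. The 19 young rats (3 months) comprised 6 hidden platform, 4 visible platform, 6 yoked and 3 cage control rats. The letter B is not explained by the labels, so B rats were kept out of the main comparisons of age and training, where the 44 other aged rats stand. They were compared only with the other hidden platform groups, young rats among them. The labels tie no animals of different groups to each other, although animal numbers fall into 4 ranges that no label explains, and the tissue was a punch of the whole cell layer, in which fewer cells of a type and less RNA per cell cannot be told apart.

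Neurofilaments are intermediate filaments built from a light, a medium and a heavy subunit together with alpha-internexin, the product of Ina, and they set the calibre of axons. Growth-associated protein 43 (Gap43) and the actin-binding protein kinase C substrate Marcks lie under the membrane of growth cones and presynaptic terminals. Map2 and tau (Mapt) bind microtubules, mainly in dendrites for Map2 and in axons for tau, Map1b is a microtubule binder abundant in growing axons, and alpha-II spectrin (Sptan1) forms the lattice beneath the plasma membrane.

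Promoter sequences were found for 5 of the 10 genes, and those of Ina and Marcks are shown because results below turn on both genes. Each is the 250 bases before the gene's start in RefSeq, build GRCr8, written 5′ to 3′ in the direction of the gene, with motif matches in capitals.
Ina, chr1:255837879-255838128, plus strand: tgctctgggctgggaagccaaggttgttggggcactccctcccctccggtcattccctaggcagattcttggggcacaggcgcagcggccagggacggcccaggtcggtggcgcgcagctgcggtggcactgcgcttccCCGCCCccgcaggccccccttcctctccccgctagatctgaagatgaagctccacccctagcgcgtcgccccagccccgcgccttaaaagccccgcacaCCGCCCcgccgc
Marcks, chr20:42245883-42246132, minus strand: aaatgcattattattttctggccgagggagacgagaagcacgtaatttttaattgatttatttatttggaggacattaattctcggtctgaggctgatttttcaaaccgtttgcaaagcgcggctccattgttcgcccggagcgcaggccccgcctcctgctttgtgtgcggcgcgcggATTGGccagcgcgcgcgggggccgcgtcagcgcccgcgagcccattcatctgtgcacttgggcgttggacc
The capitals in Ina mark 2 matches to the Sp1 box GGGCGG read from the other strand (as CCGCCC), 111 to 106 and 12 to 7 bases before the start. The capitals in Marcks mark 1 match to CCAAT read from the other strand (as ATTGG), 71 to 67 bases before the start. GGGCGG stood in 30.5% and CCAAT in 34.0% of 33469 promoter windows of the same length, so either match is common. TATAAA (12.9% of windows), TGACGTCA (1.59%) and CACGTG (5.59%), searched on both strands with the other motifs, had no match in these 2 windows. GC content was 70.8% for Ina and 55.6% for Marcks, against a median of 51.2% over all windows. Nefl and Nefm are neighbours in the same annotation, with a pseudogene between them.

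Array quality set limits that recur below. Agreement, the median Spearman correlation of an array with the others, ran from 0.223 to 0.940 with a median of 0.920, and was under 0.85 on 14 arrays, 2 of the 3 young cage control arrays among them and 0 of the 16 B arrays. The mean log2 ratio of 3′ to 5′ probe sets of 3 control genes, which varies with RNA and amplification, was 2.25 ± 0.29 (SD, n = 5) in aged and 0.81 ± 0.72 (SD, n = 3) in young cage controls. Of 16 CA1 and pyramidal neuron markers 12 were on the array, with Hpca, Nrgn, Thy1, Itpka and Snap25 well measured and Camk2a, Slc17a7 and Syt1 under the signal limit. Markers of interneurons, astrocytes and myelin were measured as well, and no listed marker stood at 0 on all arrays. Values below are MAS5 signals as deposited. Differences are in log2(signal + 15) with their standard errors, and a call is an adjusted p under 0.05 in limma's test over all 5244 probe sets.

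In aged rats, Gap43 was called lower, and Marcks was called lower by its brightest probe set alone. Map2 and Mapt rose by 1 of their 3 tested probe sets each. Together, these calls were 4 of 17 member probe sets, against 5.13% of all probe sets tested. The 44 aged and 19 young rats were compared at equal training. At an unadjusted p under 0.05 stood 6 of the 17, against 20.8% of all. The median difference of the 17 was 0.24, and that of all probe sets was -0.05. By each gene's brightest probe set, the median of the 9 genes was -0.097, with 4 genes higher and 5 lower. The neurofilament subunits and Sptan1 had no probe set past the threshold.

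Gap43, the growth cone protein, gave signals of 1534.7, 2698.0, 1032.6, 758.9 and 1245.5 in the 5 aged cage controls, against 2462.3, 3416.3 and 1477.5 in the 3 young ones. Aged yoked rats ranged from 704.2 to 2240.4 with a median of 1600.2, against 2013.6 to 5157.7 with a median of 2411.9 in young yoked rats. Aged visible platform rats ranged from 882.5 to 2260.6 (median 1419.5), against 2740.8, 3418.0, 1665.3 and 2578.8 in the 4 young ones. Ranges overlapped in each of these pairs, but 7 of 8 aged yoked, 5 of 8 aged visible platform and 3 of 5 aged cage control rats lay below the lowest young rat of the same training. With the hidden platform, impaired rats ranged from 543.4 to 2742.2 (median 2004.8) and unimpaired rats from 1223.2 to 3243.6 (median 1693.9), against 1297.3 to 4631.5 (median 2337.7) in young rats, so that most of the ranges were shared. The B rats, which did not enter the main age comparison, ranged from 1232.7 to 3076.3 with a median of 1919.7. The mean signal of each of the 4 young groups was above that of each of the 6 aged groups.

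The fitted aged minus young difference of Gap43 was -0.70 ± 0.16 (95% interval -1.01 to -0.38, adjusted p = 0.00441), and 38 of 44 aged rats lay below the young mean of their training. By training it was -0.41 with the hidden platform, -0.83 with the visible platform, -0.93 in yoked rats and -0.80 in the cage. The call held without any 1 of the 63 arrays (-0.77 to -0.64) and without the arrays of agreement under 0.85 (-0.73, adjusted p = 0.00070). It was lost under median centring (-0.71, adjusted p = 0.0732).

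Marcks was lower in aged rats by its brightest probe set, rc_AA899253_at. Signals were 847.9, 588.9, 753.8, 473.5 and 608.1 in aged cage controls, against 1440.9, 1448.0 and 817.5 in young ones. They ran from 377.3 to 737.5 (median 523.5) in aged yoked rats, against 501.3 to 2065.4 (median 807.5) in young yoked rats. Only the top of the aged cage control range reached into the young range, while the yoked ranges overlapped more widely. In the maze groups they ran from 388.7 to 1804.4 (median 747.1) in aged visible platform rats, against 671.0, 1113.7, 1012.3 and 3025.5 in young ones. Hidden platform values ran from 206.6 to 1133.0 (median 590.5) in impaired and from 266.9 to 1029.6 (median 527.7) in unimpaired rats, against 495.3 to 919.8 (median 560.3) in young rats, with the young range inside those of the aged groups.

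The fitted difference of Marcks was -0.57 ± 0.17 (95% interval -0.91 to -0.22, adjusted p = 0.0389), with 34 of 44 aged rats below the young mean of their training. Within trainings the values were -0.26 (hidden platform), -0.69 (visible platform), -0.72 (yoked) and -0.88 (cage). The other tested probe set, rc_AA955167_s_at, differed by -0.26 and was not called. The call was lost in 7 of 13 alternatives, among them the fit without arrays of low agreement (-0.39, adjusted p = 0.121), the fit with ranges of animal number as a block (-0.47, adjusted p = 0.116) and the fit without cage controls (-0.51, adjusted p = 0.224), and without any 1 of 11 arrays: aged cage control 99 and 100, aged yoked 61, 62 and 93, young cage control 70 and 74, young visible platform 65, and young yoked 22, 58 and 60 (highest adjusted p 0.0985).

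**Figure D1:**
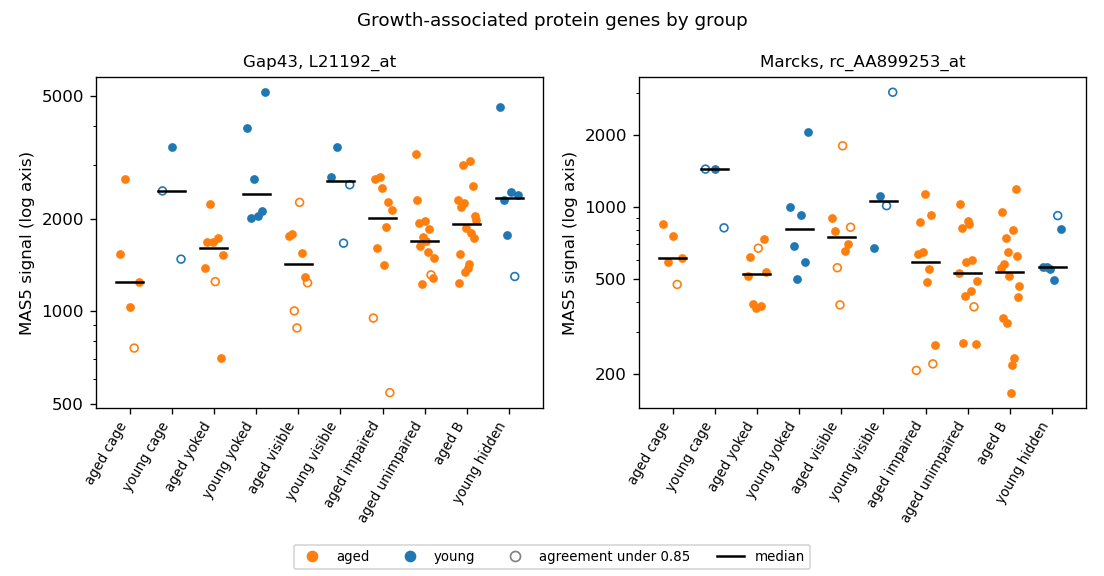
MAS5 signal (log axis) of Gap43 and of the brightest Marcks probe set in the 10 groups, aged (orange) left of young (blue) within each training. Points are arrays, open where agreement was under 0.85, and black lines are group medians; Gap43 medians lay between 1245.5 and 2004.8 in the aged groups and between 2337.7 and 2659.8 in the young groups.

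Map2 was read by 3 tested probe sets that did not move alike with age. X53455cds_s_at rose by 2.31 ± 0.40 in aged rats (95% interval 1.52 to 3.11, adjusted p = 0.00047), with 41 of 44 above the young mean of their training. X17682_s_at differed by 0.71 (adjusted p = 0.192) and U30938_at, the brightest, by -0.12 (adjusted p = 0.791).

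The array values show how wide this spread was. X53455cds_s_at gave 1169.5, 823.7, 2757.2, 3101.6 and 2649.9 in aged cage controls, against 13, 172.8 and 31.4 in young ones, with no overlap. It gave 274.7 to 2357.9 (median 660.3) in aged visible platform rats, against 31.1, 73.7, 1030.1 and 12.2 in young ones, where 3 of the 4 young arrays lay below every aged one. In yoked rats it ran from 41.2 to 3607.8 (median 1036.8) in aged rats, against 30.8 to 2052.0 (median 121.9) in young rats, with overlapping ranges. Hidden platform values were 133.5 to 2510.3 (median 1246.9) in impaired and 791.7 to 4536.1 (median 1539.2) in unimpaired rats, against 231.3 to 1983.6 (median 637.2) in young rats. The young ranges thus reached higher in the visible platform (1030.1), yoked (2052.0) and hidden platform (1983.6) groups than in cage controls (172.8). Signals under 200 occurred on 14 arrays, of which 5 had an agreement under 0.85 and 4 had a 3′ to 5′ ratio under 1.

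The X53455cds_s_at difference was 0.89 with the hidden platform, 3.06 with the visible platform, 2.29 in yoked rats and 4.90 in the cage. It was called in all 13 alternatives (1.87 to 2.78) and without any 1 of the 63 arrays. Without the cage controls, an alternative added after the data were seen, it was 1.87 (adjusted p = 0.0211).

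U30938_at gave 6115.9, 6962.7, 12890.9, 7785.9 and 5079.8 in aged cage controls, against 13386.1, 9340.4 and 8284.0 in young ones, the opposite order to that of X53455cds_s_at. X17682_s_at gave 1951.3, 784.8, 5939.6, 5999.8 and 2867.0 in aged cage controls, against 281.9, 559.3 and 959.5 in young ones, where 1 aged array fell inside the young range. Across the 79 arrays, log2 signals of X17682_s_at and X53455cds_s_at had a Pearson correlation of 0.79, and those of U30938_at and X17682_s_at one of 0.22. On the 65 arrays of higher agreement these were 0.90 and 0.13. The arrays share their amplification and scaling, so these correlations are descriptions only.

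**Figure D2:**
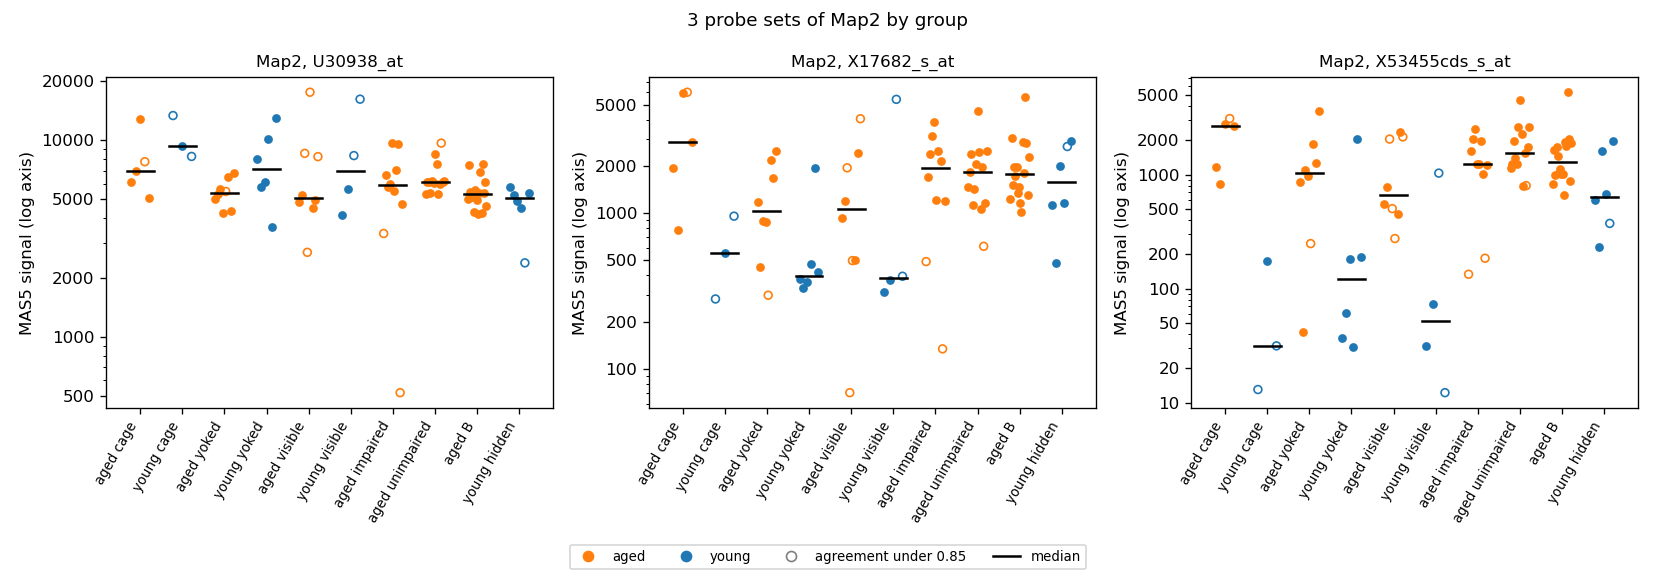
MAS5 signal (log axis) of the 3 tested Map2 probe sets in the 10 groups, aged (orange) left of young (blue), with points for arrays, open where agreement was under 0.85, and black lines for medians. For X53455cds_s_at the young cage control arrays lie between 13 and 172.8, below all aged cage control arrays, which for U30938_at is not so.

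Mapt, the gene of tau, rose by rc_AI227608_s_at alone, by 1.21 ± 0.34 (95% interval 0.53 to 1.88, adjusted p = 0.0232), with 34 of 44 aged rats above the young mean of their training. Signals were 21276.4, 17160.3, 9264.8, 8222.3 and 8536.9 in aged cage controls, against 318.3, 1907.2 and 289.3 in young ones. The cage control ranges lay far apart. They ran from 949.5 to 8345.6 (median 5691.3) in aged visible platform rats, against 2398.2, 2502.5, 6807.4 and 101.0 in young ones. Yoked values were 508.6 to 18036 (median 6340.6) in aged rats, against 2075.7 to 9316.1 (median 2907.2) in young rats. The visible platform and yoked ranges overlapped, as did those with the hidden platform, where impaired rats had 1199.4 to 7864.6 (median 6524.9), unimpaired rats 2978.6 to 9698.6 (median 5807.0) and young rats 2526.1 to 9797.2 (median 3362.3).

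The rc_AI227608_s_at difference was 0.32 with the hidden platform, 1.45 with the visible platform, 0.52 in yoked rats and 4.36 in the cage. The call was lost under median centring (1.19, adjusted p = 0.102), without cage controls (0.66, adjusted p = 0.407), without young cage control 70 and without young visible platform 65 (highest adjusted p 0.0715 of these arrays). The other Mapt probe sets, rc_AA957930_s_at and X79321_at, differed by 0.14 and 0.29 and were not called.

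Of the neurofilament subunits, Nefl had an aged minus young difference of -0.31 ± 0.19 by AF031880_at (adjusted p = 0.352) and 0.24 by M25638_s_at. Nefm, the medium chain, differed by -0.10 ± 0.14 (95% interval -0.37 to 0.18, adjusted p = 0.757). Its group medians lay between 1033.4 and 1572.5 and single arrays between 288.0 and 2819.0. Nefh, the heavy chain, differed by 0.43 and 0.26 by its 2 probe sets, neither called.

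Ina was read in opposite directions by its 2 probe sets, at 0.49 by rc_AA875659_s_at (95% interval -0.01 to 0.99, adjusted p = 0.253) and -0.38 by M73049_at (95% interval -0.81 to 0.05, adjusted p = 0.316). Sptan1 differed by 1.05 ± 0.37 (95% interval 0.32 to 1.78, adjusted p = 0.0725). Without the cage controls, the alternative added after the data were seen, it differed by 0.63 (95% interval -0.12 to 1.38, adjusted p = 0.515), and the Ina values were 0.21 by rc_AA875659_s_at and -0.10 by M73049_at. The Sptan1 signal was under 200 on 12 arrays, 9 of them with an agreement under 0.85 and 5 with a 3′ to 5′ ratio under 1. The age fit was also repeated without the arrays of agreement under 0.85 and with the 3′ to 5′ ratio as covariate. The Sptan1 values of those fits are not given here, and the cause of the low signals was not tested.

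Whether probe sets of the same gene differed in their age difference was tested on the within-array difference of each pair, by permuting age within training 100000 times (two-sided, adjusted over the 10 pairs). The pairs differed for Ina (0.49 against -0.38, permutation adjusted p = 0.0414), for Map2 X53455cds_s_at against U30938_at (permutation adjusted p = 0.00015) and against X17682_s_at (0.00010, from a raw p of 1e-05, the smallest these permutations can give), and for Map2 U30938_at against X17682_s_at (0.0414). They also differed for Mapt rc_AI227608_s_at against rc_AA957930_s_at (permutation adjusted p = 0.0128) and against X79321_at (0.0411). The pairs of Nefl, Nefh and Marcks and the remaining Mapt pair did not pass. Without the cage controls, an alternative added after the data were seen, 2 of the 6 remained, both with Map2 X53455cds_s_at (permutation adjusted p = 0.00285 and 0.00030). Without the arrays of low agreement, 5 passed.

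**Figure D3:**
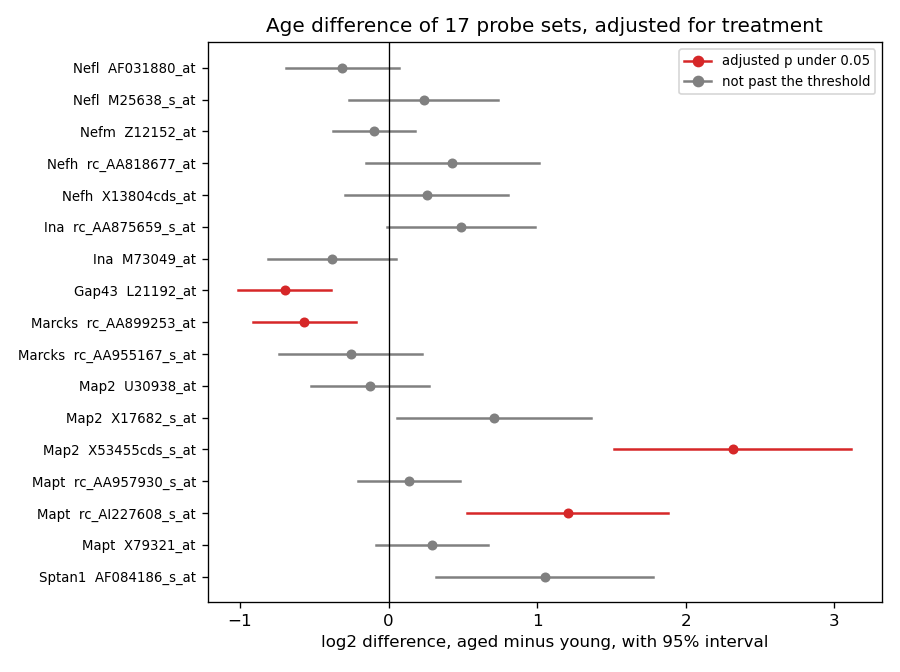
Aged minus young difference in log2(signal + 15) with its 95% interval for the 17 tested probe sets, from limma over 44 aged and 19 young arrays. Red marks the 4 with an adjusted p under 0.05, and probe sets of Ina, Map2 and Mapt stand on different sides of, or at different distances from, 0.

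Other genes of the cytoskeleton and growth cone were followed in 5 lists, for which counts are of genes, each by its brightest probe set, and are to be read against the 5.13% of all probe sets called with age. Of 16 tested microtubule-binding, stathmin and motor genes 1 rose with age and 0 fell (median 0.01), Dctn1, a dynactin subunit, by 0.73 ± 0.21 (adjusted p = 0.0290). Of 9 membrane skeleton and actin genes 1 rose and 0 fell (median 0.29), Add3, an adducin that caps actin, by 0.66 ± 0.18 (adjusted p = 0.0184). Of 21 growth cone genes 1 rose and 0 fell (median 0.03), Rab3a, a GTPase of synaptic vesicles, by 0.77 ± 0.22 (adjusted p = 0.0262).

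Of 30 kinases, phosphatases and proteases that act on these proteins, 2 rose and 0 fell (median 0.06). They were Camk2g, a calcium/calmodulin kinase subunit, by 0.87 ± 0.18 (adjusted p = 0.00163), and Csnk1a1, casein kinase 1 alpha, by 0.59 ± 0.17 (adjusted p = 0.0242). None of 7 tubulins and other intermediate filament genes passed with limma (median -0.12), where Nes differed by -0.34 and Tubb5 by 0.39. Beside these values, the summed signal of pyramidal neuron markers ran from 6821.7 to 108403.0 in aged and from 33284.1 to 93749.4 in young rats, and that of myelin markers from 4554.5 to 33597.8 in aged and from 6236.1 to 24288.7 in young rats. Interneuron markers summed to 3612.2 to 16673.5 in aged and 7596.2 to 32330.0 in young rats, and astrocyte markers to 6703.5 to 76805.2 in aged and 8123.1 to 56885.1 in young rats. The lowest aged sum of each of these lists was in the impaired group, where 2 arrays had an agreement under 0.85. Group medians of the pyramidal sums overlapped, at 55464.0 to 64438.8 in aged and 51754.3 to 66420.2 in young groups. Called with age among the markers, against 5.13% of all probe sets, were Pcp4 (-0.81) of pyramidal cells, Sst (-0.67) of interneurons, Aqp4 (0.96) of astrocytes and C3 and C1qb (1.25 each) of microglia. They are single genes of lists with other tested markers, whose directions are not given here, and do not stand for a cell type. The part of cell makeup in the member differences was not tested.

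Within cage controls, the pair of groups with the fewest rats, 7 of 17 member probe sets were called with age, against 17% of all. The median difference was 0.40 over the 17, 0.16 over the brightest probe sets of the 9 genes (5 higher and 4 lower) and -0.27 over all probe sets. Sptan1 gave 1454.9, 1403.4, 693.6, 150.6 and 1379.7 in aged cage controls, against 24.9, 146.4 and 41.4 in young ones, a difference of 3.50 ± 0.91 (adjusted p = 0.00563) in which the lowest aged array lay just above the highest young one. Nefh rc_AA818677_at gave 960.6, 583.3, 445.1, 612.9 and 971.6 in aged cage controls, against 36.6, 428.7 and 107.1 in young ones, a difference of 2.31 ± 0.73 (adjusted p = 0.0211) with the ranges again just apart.

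Ina M73049_at ran the other way, with 729.0, 572.1, 462.7, 644.6 and 938.6 in aged cage controls, against 3255.0, 4633.1 and 1188.7 in young ones, a difference of -1.98 ± 0.52 (adjusted p = 0.00656). Ina rc_AA875659_s_at gave 4541.0, 3081.1, 8812.1, 5804.0 and 4939.6 in aged cage controls, against 1311.3, 2103.1 and 584.6 in young ones, a difference of 2.11 ± 0.62 (adjusted p = 0.0133). Neither Ina probe set had overlapping ranges, and they pointed in opposite directions in the same 8 rats. Mapt rc_AI227608_s_at (4.36 ± 0.79, adjusted p = 0.000187), Map2 X53455cds_s_at (4.90 ± 0.97, adjusted p = 0.000504) and Map2 X17682_s_at (2.33 ± 0.83, adjusted p = 0.0432) were the other 3 calls.

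The log2 3′ to 5′ ratio was 0.29, 1.63 and 0.52 on young cage controls 70, 74 and 76, below the 1.96 to 2.57 of the aged cage controls. Its part in the age differences within cage controls was not tested. Only young cage control 74 of the 3 young cage controls had an agreement of 0.85 or more. Against that 1 array, Sptan1 differed by 2.89, Ina M73049_at by -2.80, Mapt rc_AI227608_s_at by 2.76 and Map2 X53455cds_s_at by 3.13. With 1 array left, the spread among young cage controls is not measured, and no call is drawn from these values.

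In the other trainings no member was called by limma. In yoked rats 3 members had an unadjusted p under 0.05, against 0% of all probe sets called and 7.80% unadjusted. In visible platform rats these were 3 members, against 0.0381% called and 6.88% unadjusted. In hidden platform rats 0 members had an unadjusted p under 0.05, against 0% called and 2.02% unadjusted. Without the arrays of low agreement, Gap43 (-0.90, adjusted p = 0.0185) and Map2 X53455cds_s_at (2.51, adjusted p = 0.0112) were called within yoked rats. The share of all probe sets called in that fit is not given here, so these calls are not to be read against the 0% of the fit with all arrays. The test of whether the age difference depended on training, an F test on 3 degrees of freedom, called 0 members (0.305% of all called and 14.3% at an unadjusted p under 0.05). The smallest adjusted p-values were 0.0590 for Mapt rc_AI227608_s_at, 0.146 for Map2 X53455cds_s_at and 0.150 for Ina M73049_at. Mapt passed without any 1 of 8 arrays, young cage control 74, young hidden platform 2, young visible platform 30 and 65, aged visible platform 67 and 68, aged yoked 63 and impaired 83, with the lowest adjusted p of 0.0107 without young visible platform 65.

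**Figure D4:**
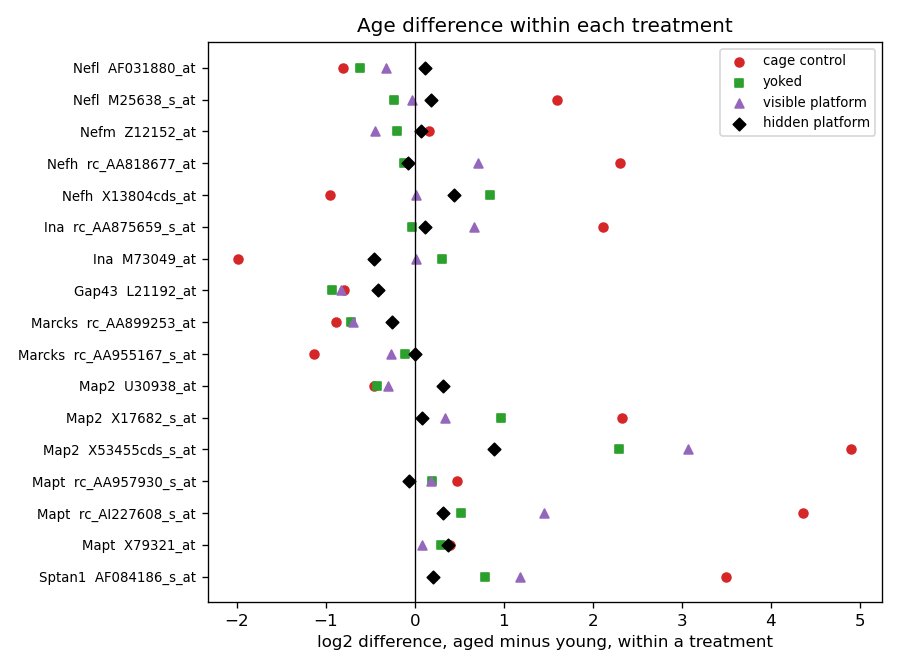
Aged minus young difference in log2(signal + 15) of the 17 tested probe sets within each training, each point being a fitted difference from limma. Cage control points spread from -1.98 to 4.90, while hidden platform points stay within 1 of 0.

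Impaired and unimpaired rats, which had the same training and differed in learning, had no member called (0 of 17 in limma, 0% of all probe sets). At an unadjusted p under 0.05 stood 2 of 17 members, against 12.9% of all. Nefl, the light neurofilament chain, gave 367.1 to 4733.8 (median 2740.2) in impaired rats, against 2550.7 to 4954.1 (median 3181.5) in unimpaired rats, and 4 of the 10 impaired rats lay below every unimpaired one. Its difference by AF031880_at was -0.70 ± 0.25 (95% interval -1.20 to -0.19, adjusted p = 0.312), with 9 of 10 impaired rats below the unimpaired mean. By M25638_s_at, the other tested Nefl probe set, the difference was -0.25. Mapt X79321_at differed by -0.72 ± 0.29 (adjusted p = 0.323), with 8 of 10 below.

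In all, 15 of the 17 members lay lower in impaired rats, with a median of -0.25, against 46.8% of all probe sets lower and a median of 0.04. Taking each gene's brightest probe set, all 9 genes were lower, from -0.02 for Gap43 and -0.18 for Nefm to -0.51 for Ina and -0.70 for Nefl. Without impaired array 83 these were -0.43 for Nefl, -0.25 for Ina, -0.16 for Mapt and -0.047 for Map2, against -0.45 for Mapt and -0.40 for Map2 with it. Quantile normalization and median centring moved the median of all probe sets by -0.21 and -0.33 in this comparison. Without the arrays of agreement under 0.85, 2 of them impaired and 1 unimpaired, Nefl differed by -0.34, and Nefm (0.14), Gap43 (0.25), Marcks (0.20) and Map2 (0.11) had the other sign. No pair of probe sets of the same gene passed in this comparison (0 of 10, permutation test).

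Nefl and Ina were each called higher in B than in impaired rats by 1 of their 2 tested probe sets. The other Nefl probe set, M25638_s_at, differed by 0.31 and was not called. Nefl AF031880_at gave 2375.9 to 5007.1 (median 3686.6) in B rats, against 367.1 to 4733.8 (median 2740.2) in impaired rats, and 1 of 16 B rats lay above the highest impaired one. Ina M73049_at gave 646.6 to 2714.9 (median 1805.7) in B rats, against 68.7 to 1047.2 (median 514.3) in impaired rats, and 13 of 16 B rats lay above every impaired one. Ina rc_AA875659_s_at, of the same gene, gave 1429.0 to 7412.3 (median 2966.9) in B rats, against 344.1 to 3288.5 (median 2116.7) in impaired rats, with ranges that overlapped widely.

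These were 2 of 17 members called between B and impaired rats, against 12.0% of all probe sets, so their share was no higher than the array's. Ina M73049_at rose by 1.64 ± 0.29 (95% interval 1.07 to 2.21, adjusted p = 0.000451) and Nefl AF031880_at by 0.85 ± 0.21 (95% interval 0.42 to 1.27, adjusted p = 0.00918), and for each all 16 B rats lay above the impaired mean. Both calls held under all 12 alternatives and without any 1 of the 26 arrays. Over the alternatives the Nefl value ran from 0.42 with array quality weights to 1.23 under median centring. Without the arrays of low agreement, which took out 2 impaired and 0 B arrays, the differences were 1.30 (adjusted p = 0.0033) for Ina and 0.46 (adjusted p = 0.0406) for Nefl. The median of all probe sets moved by 0.22 under quantile normalization and by 0.39 under median centring in this comparison.

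Against unimpaired rats, Ina M73049_at was the 1 member called (0.0572% of all). Unimpaired rats ranged from 125.2 to 1055.8 with a median of 852.7, and 13 of 16 B rats lay above the highest of them. B rats were higher by 1.23 ± 0.26 (95% interval 0.70 to 1.76, adjusted p = 0.0299), with 15 of 16 above the unimpaired mean. The call was lost under quantile normalization (1.08, adjusted p = 0.707), under median centring (1.29, adjusted p = 0.204) and without any 1 of 15 arrays, B 9, 11, 12, 13, 41, 43, 46, 86, 88 and 90 and unimpaired 7, 15, 16, 20 and 89 (1.04 to 1.31 over all left-out arrays, highest adjusted p 0.116). Without the arrays of low agreement it was 1.26 (adjusted p = 0.0092).

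Against young hidden platform rats, which ranged from 591.7 to 1103.3 (median 840.8), 13 of 16 B rats also lay above the highest value. No member was called in limma (0% of all probe sets, 8.09% at an unadjusted p under 0.05), where Ina M73049_at at 0.94 (adjusted p = 0.388) and Nefl at 0.56 were the 2 members with an unadjusted p under 0.05. Within arrays, the difference between the 2 Ina probe sets was itself different between B and impaired rats (-0.97 on the log2 scale, permutation adjusted p = 0.0407) and between B and unimpaired rats (-1.07, permutation adjusted p = 0.0098), in tests added after the data were seen. Other pairs passed in the same tests. Against impaired rats they were the Nefh pair (0.99) and Mapt rc_AA957930_s_at against rc_AI227608_s_at (0.61), with a permutation adjusted p of 0.0407 each. Against unimpaired rats they were Map2 X17682_s_at against X53455cds_s_at (0.38, permutation adjusted p = 0.0122) and Mapt rc_AA957930_s_at against X79321_at (0.39, permutation adjusted p = 0.0382). Without the arrays of low agreement, the Ina pair still passed (permutation adjusted p = 0.0011 against impaired and 0.0016 against unimpaired rats). The Map2 pair also passed (0.0236), while the Nefh pair (0.155) and both Mapt pairs (0.193 and 0.0519) did not.

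**Figure D5:**
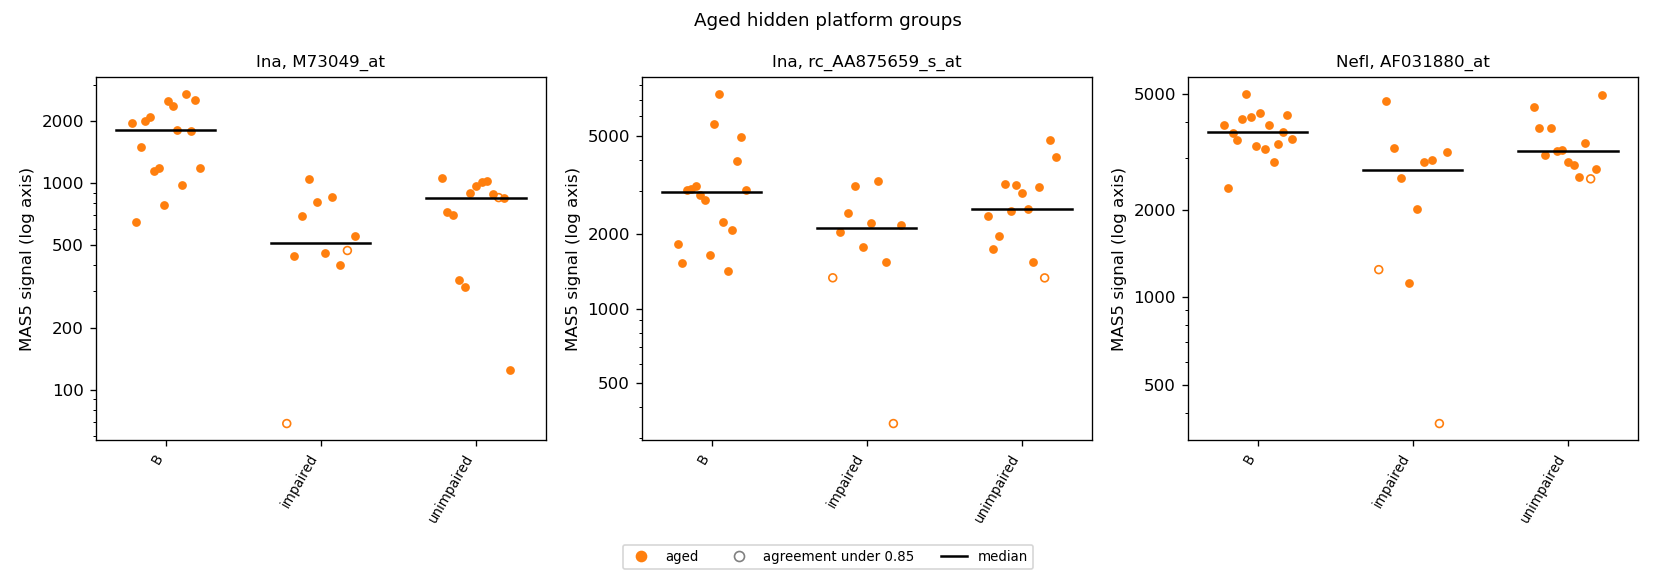
MAS5 signal (log axis) of both Ina probe sets and of Nefl AF031880_at in the B, impaired and unimpaired hidden platform rats, with points for arrays, open where agreement was under 0.85, and black lines for medians. The Ina M73049_at median of 1805.7 in B rats lies above all impaired and unimpaired arrays, and that of Ina rc_AA875659_s_at, 2966.9, lies inside both of their ranges.

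In the other lists, counts between B and impaired rats are to be read against the 12.0% of all probe sets called. Of 16 microtubule-binding, stathmin and motor genes 3 rose and 1 fell. Dpysl2, which carries tubulin in growing axons, fell by 1.27 ± 0.32 (adjusted p = 0.00918), Map1a, a microtubule-associated protein, rose by 0.94 ± 0.29 (adjusted p = 0.0307), Stmn1, which destabilises microtubules, by 0.80 ± 0.25 (adjusted p = 0.0338), and Dync1li2, a dynein light intermediate chain, by 0.73 ± 0.25 (adjusted p = 0.0469). Of 21 growth cone genes 2 rose, Nrxn3, a synaptic adhesion protein (0.91 ± 0.20, adjusted p = 0.00368), and Scg2, a granin (1.02 ± 0.27, adjusted p = 0.0136), and 1 fell, the adhesion molecule Alcam (-0.66 ± 0.20, adjusted p = 0.0267). Of 7 tubulins and other intermediate filament genes 1 rose, Tuba4a (0.76 ± 0.24, adjusted p = 0.0319), and of 30 kinases, phosphatases and proteases 1 rose, the small calpain subunit Capns1 (0.84 ± 0.25, adjusted p = 0.0273). Of 9 membrane skeleton and actin genes 0 passed in limma. Against unimpaired rats 0 genes of these 5 lists passed in limma.

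Among the markers, Neurod2 (1.11), Sst (0.90) and Npy (0.67) were higher and Pecam1 (-1.38) and Kcnj8 (-1.07) lower in B than in impaired rats, where 12.0% of all probe sets were called. These, too, are single genes of lists with other tested markers and do not stand for a cell type. Summed pyramidal markers ran from 47145.6 to 77534.0 (median 56257.7) in B rats. In impaired rats, where 2 arrays had an agreement under 0.85, they ran from 6821.7 to 70909.5 (median 56549.8). Summed endothelial markers ran from 660.0 to 2825.1 (median 853.55) in B rats, against 783.0 to 4247.5 (median 1427.15) in impaired rats. The part of these markers in the Nefl and Ina differences was not tested.

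Map1b, the microtubule binder of growing axons, was under the signal limit by all 3 probe sets, with medians of 27.1, 15.7 and 11.3 over the arrays. These signals are close to the pseudocount, and no difference is given for the gene. U52950_g_at ran from 2.9 to 23 in B rats, against 7.5 to 150.1 in impaired rats, where the 2 highest values, 95.2 and 150.1, were on arrays 8 and 83, of agreement 0.445 and 0.223.

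Training was compared with each control within an age. In aged rats, limma called 0 of 17 members between hidden and visible platform training (0.0191% of all called), with 2 members and 11.4% of all at an unadjusted p under 0.05. Against yoked rats it called 0 (0% of all), with 1 member and 2.96% of all unadjusted, and against cage controls 0 (0% of all), with 2 members and 8.56% unadjusted. The members with an unadjusted p under 0.05 against the visible platform were Ina M73049_at (-0.95, adjusted p = 0.231) and Marcks (-0.52). The comparisons among aged yoked, visible platform and cage control rats called 0 members each (for yoked against cage 0.0191% of all, and 3 members and 9.06% of all unadjusted, for visible platform against cage 0%, and 2 members and 9.55% unadjusted, for visible platform against yoked 0%, and 0 members and 4.65% unadjusted).

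In young rats 3 members were called between hidden platform rats and cage controls, against 5.28% of all. Sptan1 gave 223.5 to 1964.9 (median 1110.1) in young hidden platform rats, against 24.9, 146.4 and 41.4 in young cage controls, with no overlap (3.63 ± 0.95, adjusted p = 0.0332). Nefh rc_AA818677_at gave 545.8 to 1236.4 (median 948.1) in young hidden platform rats, against 36.6, 428.7 and 107.1 in young cage controls, again apart (2.62 ± 0.76, adjusted p = 0.0453). Ina M73049_at was lower, at 591.7 to 1103.3 in young hidden platform rats, against 3255.0, 4633.1 and 1188.7 in young cage controls, with the lowest cage control just above (-1.68 ± 0.43, adjusted p = 0.0306).

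The same 3 young cage arrays serve here and in the age comparison within cage controls, so the values are not independent of those above. Leaving out 1 of the 9 arrays gave 0 to 4 calls: the 3 calls were lost without young hidden platform 3, 37 or 40 or young cage control 70, those of Sptan1 and Nefh also without young hidden platform 38 or young cage control 76, that of Ina without young cage control 74 and that of Nefh without young hidden platform 2. All 3 were lost without the arrays of low agreement, when 1 cage control is left, at 2.83 for Sptan1, 1.09 for Nefh and -2.41 for Ina. They were also lost when the 3′ to 5′ ratio entered as a covariate, at 0.72 for Sptan1, -0.12 for Nefh, which turned sign, and -1.17 for Ina, and with ranges of animal number as a block, at 1.05, 0.30 and -1.37. The other young comparisons called 0 members in limma. Between yoked rats and cage controls 0.0953% of all probe sets were called, and 4 members and 17.7% of all had an unadjusted p under 0.05. In the remaining 4 comparisons 0% of all were called, and those with an unadjusted p under 0.05 were 1 member and 8.85% for visible platform against cage, 0 members and 1.41% for visible platform against yoked, 2 members and 5.23% for hidden against visible platform, and 2 members and 1.77% for hidden platform against yoked.

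Genes whose signal followed Nefl most closely were sought over the 65 arrays of higher agreement, after taking off group means, among 3233 genes by their brightest probe sets. They were Chgb, a granin of secretory granules (Pearson correlation 0.77), Gyg1, glycogenin (0.69), Sem1, a proteasome component (0.67), the histone deacetylase Hdac2 (0.67) and Timm29, of the mitochondrial import machinery (0.65). Nefm stood at 0.34, rank 210, and Nefh at -0.20. Between the 2 probe sets of the same gene, correlations over the 79 arrays were 0.04 for Ina, 0.01 for Nefl, -0.28 for Nefh and 0.12 for Marcks. The Map2 pairs stood at 0.79, 0.22 and -0.06, and the Mapt pairs at 0.66, 0.34 and 0.29. Group means were left in and all arrays used for these pairs, so they are not on the measure of the Nefl correlations above.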

How the data were processed

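Total RNA of the CA1 cell layer was punched from brain slices, amplified in 2 rounds and hybridised to 1 array per rat, per the labels' protocols. Each deposited value is an intensity on a linear scale for a probe set on 1 array, and MAS5 is named as the authors' tool in the submitters' processing notes. The mean of each array without the top and bottom 2% of values lay between 499.3 and 500.0, and array medians between 99.3 and 346.7. Scan dates and detection calls were not used here, and the build behind the probe sets is not given in the sources. No 2 arrays were identical.

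Groups came from sample titles. Of 8799 probe sets 59 controls were left out. Symbols were taken from the platform annotation and updated through gene identifiers for 6994 of 7018 probe sets with 1 symbol; 308 had several symbols, none of them a member. Values were tested as log2(signal + 15), a scale that understates the change of low signals, in the probe sets left after dropping the dimmest 40% by mean signal over all arrays. The fits, made in R 4.3.3 with limma 3.58.1 (lmFit and trended eBayes, tested on both sides, with Benjamini-Hochberg adjustment over all 5244 probe sets), used 44 aged and 19 young arrays for age with training as a factor, the same arrays for the interaction, 44 aged or 19 young arrays within an age, 60 aged arrays for B against aged rats, and all 79 for B against young rats. Probe sets of the same gene were compared by permutation tests. The fit was tested on simulated data. The members, lists and comparisons were chosen with earlier results of these data known, and the lists are not independent evidence. All members are named; from other lists up to 4 called genes per list and comparison, or the 2 with the smallest unadjusted p as values.

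The fits were repeated with a pseudocount of 1 or 60, without a signal limit or with a 60% limit (60% filter), after quantile normalization or median centring, with robust eBayes and no trend, with array quality weights, in 1 fit over all 79 arrays, without arrays of agreement under 0.85, with the 3′ to 5′ ratio as covariate, with 4 ranges of animal number as a block (no label calls them batches), with other probe sets of a gene, and without each array in turn. Leaving out cage controls and the pair tests of B rats were added after the data were seen. The number of arrays limits the precision.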

Additional observations from a re-analysis of the deposited data

Results flagged for a closer look

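In 12 of 84 tests of 1 array against the rest of its group, over 12 probe sets, the lowest or highest array stood apart by Dixon's test at the 95% level; chance gives about 1 in 20. Of the 12, 10 were on arrays with an agreement under 0.85.

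Impaired array 83, the array of lowest agreement (0.223), was low in 4 probe sets. It gave 344.1 for Ina rc_AA875659_s_at (median of the other impaired arrays 2188.2), 518.0 for Map2 U30938_at (6027.2), 652.5 for Mapt rc_AA957930_s_at (5812.7) and 1199.4 for Mapt rc_AI227608_s_at (6571.8). Impaired array 8 (agreement 0.445) gave 68.7 for Ina M73049_at, against a median of 555.7 in the others.

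Aged yoked array 63 (agreement 0.642) was low in 3 probe sets, at 48.5 for Nefh rc_AA818677_at (864.0 in the others), 183.9 for Ina rc_AA875659_s_at (2284.5) and 91.4 for Sptan1 (1543.2). Aged visible platform array 68 (agreement 0.763) gave 42.9 for Nefh rc_AA818677_at, against 860.9.

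Among young rats, hidden platform array 39 (agreement 0.661) gave 2376.0 for Map2 U30938_at, against 5286.3 in the others. Ina rc_AA875659_s_at was high on young hidden platform array 37 (3812.1, against 1828.1) and on young yoked array 59 (4807.8, against 1448.9). The part of array quality in these values was not tested.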

How the results depend on the processing

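Over the alternatives other than left-out arrays, 205 single-gene values kept their direction and side of the threshold, 9 lost and 8 gained a call and 19 turned sign; of the counts, 195 stayed within 1.5 times and 27 moved. The cause of these moves was not tested. The member counts that follow are given without the share of all probe sets called in the same alternative. They are therefore no result about the members in particular. The age comparison called 1 member under median centring, 7 in 1 fit over all 79 arrays, 2 without cage controls (added after the data were seen) and 2 to 5 without 1 array. The interaction called 1 with the 60% filter, 1 in the fit over all arrays, 13 with array quality weights and 0 to 1 without 1 array. Array quality weights called 5 for aged hidden against visible platform, 1 for aged hidden platform against cage, 1 for aged visible platform against cage, 3 for aged visible platform against yoked, 1 for young hidden against visible platform, 7 for young yoked against cage, 6 for young visible platform against cage, 2 for B against unimpaired and 2 for B against young rats, where the tests without weights called 0, or 1 for B against unimpaired. Without arrays of low agreement, 1 was called for aged hidden platform against cage. For young hidden platform against cage (3 calls) the count was 5 with the 60% filter and in the fit over all arrays, 11 with weights, 0 under median centring, without arrays of low agreement, with the 3′ to 5′ covariate and with animal number range as a block, and 0 to 4 without 1 array. Young yoked against cage gave 4 in the fit over all arrays and 0 to 2 without 1 array, as did young visible platform against cage without 1 array. B against unimpaired gave 0 under quantile normalization and median centring and 0 to 1 without 1 array. Of the pairs of probe sets that differed with age, 2 remained past the threshold without cage controls. Signs turned in the age comparison for Map2 with weights (0.020) and for other probe sets of Nefl (0.24), Ina (-0.38) and Map2 (0.71 and 2.31). In impaired against unimpaired rats they turned with weights for Nefm (0.17), Gap43 (0.16), Marcks (0.088), Map2 (0.019) and Sptan1 (0.070); without arrays of low agreement for Nefm (0.14), Gap43 (0.25), Marcks (0.20) and Map2 (0.11); with the covariate for Nefh (0.0014), Gap43 (0.0022) and Sptan1 (0.023); and with other probe sets for Nefh (0.037) and Marcks (0.39). Without 1 array the ranges were -0.32 to 0.037 for Nefm, -0.21 to 0.054 for Nefh, -0.10 to 0.16 for Gap43, -0.19 to 0.075 for Marcks and -0.35 to 0.041 for Sptan1, and, with no change of sign, -0.83 to -0.43 for Nefl, -0.61 to -0.25 for Ina, -0.51 to -0.047 for Map2 and -0.52 to -0.16 for Mapt. Signals near the pseudocount of 15, as for Map1b and the lowest Map2 arrays, carry little information on fold size. No paired analysis was possible because the numbers in the labels are animal numbers, each used once, and groups share none.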
